A study of Canis lupus familiaris with 77 samples.

Results

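The miR-17, miR-18, miR-19 and miR-106 group of miRNAs was followed across 16 tissues of untreated male beagle dogs. It was chosen by name and not by its measured level. The 8 names cfa-miR-17, cfa-miR-18a, cfa-miR-19a, cfa-miR-19b, cfa-miR-20a, cfa-miR-93, cfa-miR-106a and cfa-miR-106b are held in 9 rows of the 650 miRNAs that were detected, and all 9 rows passed the filter on low counts. The name cfa-miR-106a covers 2 rows. The first carries the human name miR-106a-5p and the second the human name miR-17-5p, and they are called the miR-106a-5p row and the miR-17-5p row below. The row named cfa-miR-17 carries the human name miR-17-3p, so it holds the other arm of the miR-17 hairpin and is written miR-17 (3p). The sequences of the miR-106a-5p and miR-17-5p products are nearly identical, and how the reads of a library were divided between these rows is uncertain.

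The atlas was made by miR-seq, which sequences RNA of miRNA length. The libraries analysed here number 76, made from 4 colon samples, 2 sciatic nerve samples and 5 samples of every other tissue. The tissues besides colon and nerve are bone marrow, brain, duodenum, heart, ileum, jejunum, kidney, liver, lung, pancreas, plasma, skeletal muscle, testis and thymus. The dogs were 10 months old, received no compound and were perfused with buffered saline before the tissues were taken, and every library is bulk tissue, plasma or bone marrow. The study's methods describe all tissues as taken from the same small set of dogs. Libraries of different tissues are therefore not independent, but the tests treated them as independent. The labels do not say which libraries came from the same dog, or whether those of a tissue came from separate dogs. The p-values therefore measure the spread between these libraries. The study describes its sciatic nerve samples in one place as part single and part pooled, and in another as a pool of all dogs that was divided again. The spread of the 2 nerve libraries may therefore be technical. According to its methods, RNA of bone marrow and plasma was isolated in another way than RNA of the solid tissues. The isolation and the tissue therefore cannot be told apart in any comparison of plasma or marrow with a solid tissue.

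These miRNAs come from 3 sets of neighbouring genes. In a dog gene table of another assembly, MIR17, MIR18A, MIR19A, MIR20A, MIR19B-1 and MIR92A-1 lie together, MIR106A, MIR18B, MIR20B, MIR19B-2, MIR92A-2 and MIR363 form a second set, and MIR106B, MIR93 and MIR25 lie inside the gene of MCM7, a helicase subunit that unwinds DNA for replication. As background, miRNAs of one cluster can be cut from a single primary transcript. miR-17-5p, miR-20a, miR-93, miR-106a and miR-106b share a seed, the bases that pair with target mRNAs, while miR-18a forms one seed family and miR-19a and miR-19b another. The clusters are known for their activity in dividing blood, gut and tumour cells and are driven by the MYC and E2F factors. The miR-17 seed family represses the cell cycle inhibitor CDKN1A and the BIM cell death protein.

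Depth was uneven. A library had from 157871 to 7896424 reads on miRNAs, with a median of 1364823. RPM, reads of a miRNA scaled to a library total of 1000000 reads on miRNAs, is not corrected for length, mature miRNAs being of nearly equal length. In RPM, 3 reads, the upper limit that a count of 0 allows, correspond to between 0.380 and 19.003 RPM. The bone marrow libraries were shallow, with 162310 to 239023 reads. The study reports low RNA integrity in plasma, bone marrow and some kidney samples, and a lower share of mapped reads in marrow. The part of RNA integrity in the values was not tested.

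Several libraries stood apart from their tissue in miRNAs that mark its cells. The markers are miRNAs known from other work, and none of them is a member. In thymus, the lymphocyte markers (miR-150, miR-142, miR-155, miR-181a and miR-181b) summed to 473818 and 542499 RPM in replicates 1 and 4 and to 55634, 45743 and 57697 RPM in replicates 2, 3 and 5. The latter 3 lie in the range of bone marrow, 32574 to 60181 RPM. In testis, the germ cell markers (miR-34b, miR-34c and miR-449a) summed to 54572, 102502 and 87399 RPM in replicates 1, 4 and 5, but to 5127 RPM in replicate 2 and 639 RPM in replicate 3. In duodenum, the 6 epithelial markers (miR-192, miR-194, miR-215, miR-200b, miR-200c and miR-141) summed to 333387 and 540214 RPM in replicates 1 and 2 and to 24931, 6171 and 90902 RPM in replicates 3, 4 and 5. This list is not particular to intestine, since it summed to 168677 to 231163 RPM in liver. Skeletal muscle replicate 4 held 735 RPM of striated muscle markers against 39180 to 116406 RPM in the other 4 libraries. These 9 libraries, whose marker sum was under 20% of the highest library of their tissue among the 54 libraries checked, are called low-marker libraries, and the results that rest on them are given with and without them. That limit was chosen after the values were seen. Ileum replicates 4 and 5 lay just above it, at 21.9% and 21.8%, and duodenum replicate 5 just below, at 16.8%. Kidney, lung, bone marrow, plasma and sciatic nerve were not checked.

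**Figure D1:**
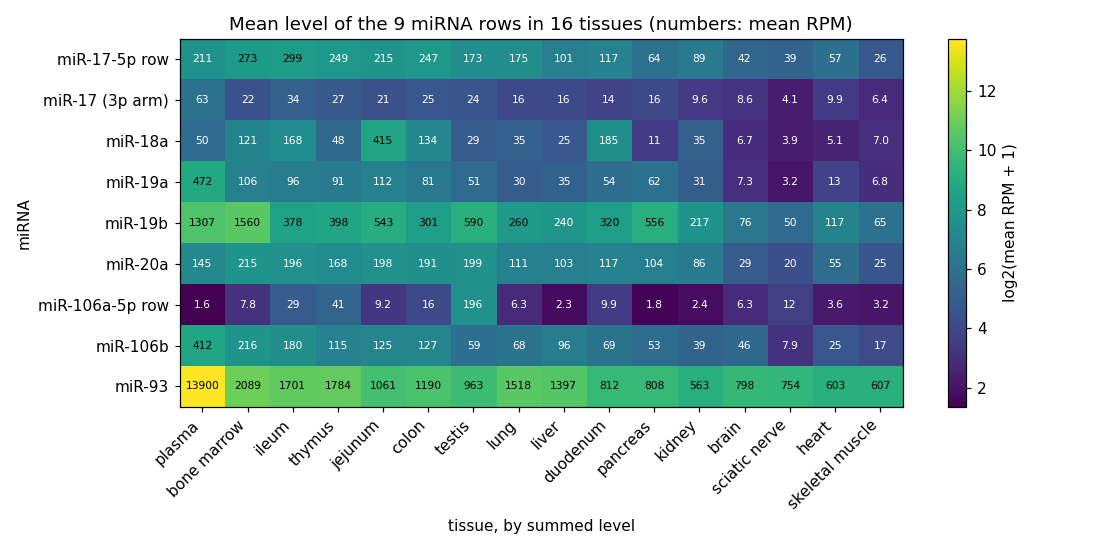
Mean RPM of the 9 rows (vertical axis) in the 16 tissues (horizontal axis, ordered by the summed level), with colour showing log2(mean RPM + 1). The brightest square is miR-93 in plasma, and the miR-106a-5p row is highest in testis.

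miR-93 held the most reads of the group. It made up 65.5% of all reads on the 9 rows when the 76 libraries were pooled, so that deep libraries count for more in this figure. Per library its share averaged 84.9% ± 6.31 (SD, n = 5) in plasma and 77.9% ± 3.88 in brain, but 49.0% ± 8.70 in pancreas, 44.9% ± 8.10 in bone marrow and 39.8% ± 8.55 in jejunum. In the pooled reads miR-19b followed with 13.2%, the miR-17-5p row with 5.64%, miR-20a with 4.61%, miR-106b with 3.80%, miR-18a with 3.16% and miR-19a with 2.86%. miR-17 (3p) made up 0.741% and the miR-106a-5p row 0.436%. These 2 rows are thinly covered, since the miR-106a-5p row had 3 reads or fewer in 24 libraries and miR-17 (3p) in 8, whereas miR-93 had more than 3 reads in all of them. miR-18a and miR-19a likewise had 3 reads or fewer in 8 libraries each. Within the miR-17 seed family the share of miR-93 was 94.8% ± 1.01 (SD, n = 5) in plasma and 65.7% ± 4.31 (SD, n = 5) in jejunum, the highest and lowest means.

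The summed level of the 9 rows was highest in plasma, at 16560 ± 4233 RPM (SD, n = 5), and next in bone marrow, at 4611 ± 702 RPM (n = 5). The plasma libraries ranged from 10317 to 22003 RPM and did not overlap those of bone marrow, 3652 to 5342 RPM. Ileum (3082 RPM), thymus (2922), jejunum (2700), colon (2311), testis (2283), lung (2220), liver (2015), duodenum (1698) and pancreas (1676) followed as means. Kidney (1073), brain (1020), sciatic nerve (894), heart (889) and skeletal muscle (764) were the lowest. Of the 15 pairs of neighbours in this order, 14 had overlapping libraries, so that below plasma no tissue was separated from the next beyond the spread of its libraries. Without the low-marker libraries the means were 5527 RPM in thymus, 3274 RPM in testis, 2871 RPM in duodenum and 591 RPM in skeletal muscle. The lead of plasma rested on miR-93. Without that row the sum over all libraries was 2660 RPM in plasma and 2521 RPM in bone marrow, whose libraries overlapped. Jejunum (1639 RPM) then came before ileum (1381 RPM). In bulk samples, fewer cells of a type and less RNA per cell cannot be told apart.

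**Figure D2:**
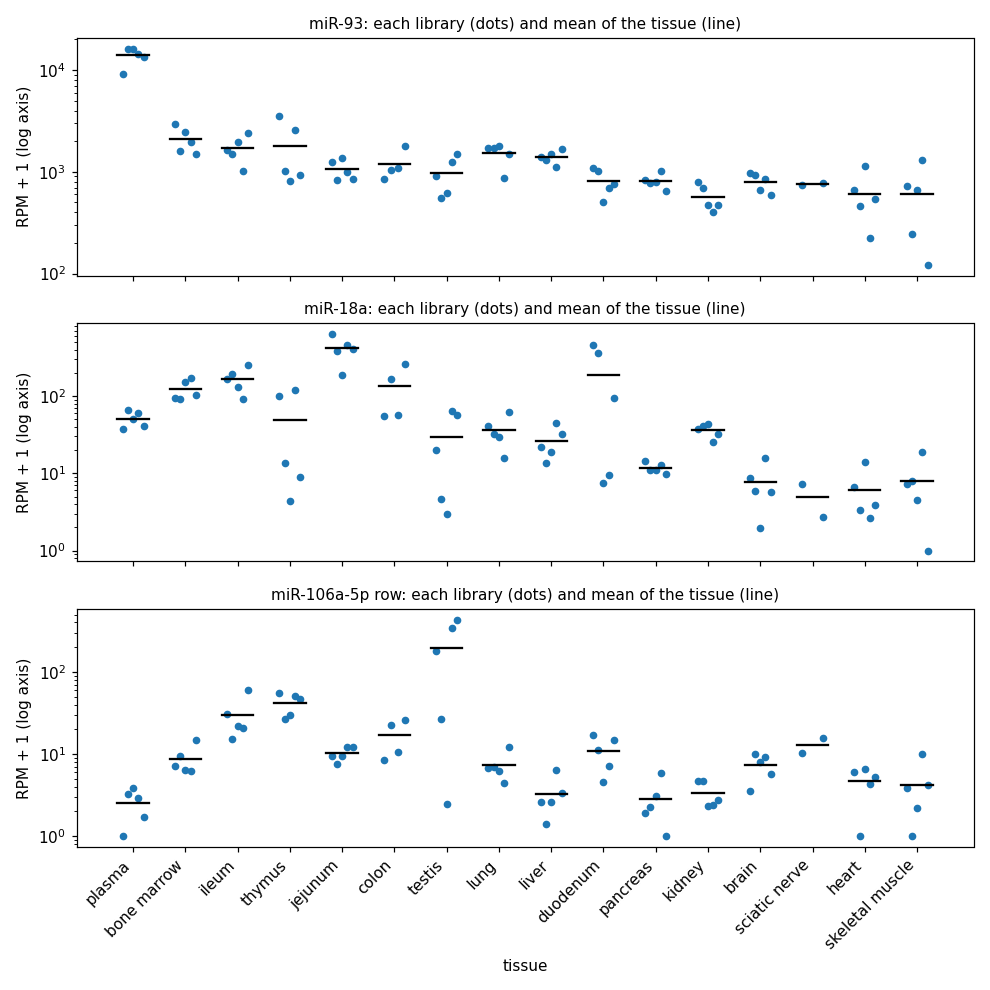
RPM + 1 on a log axis of miR-93, miR-18a and the miR-106a-5p row in each library (dots) with the mean of each tissue (line), tissues ordered by the summed level. miR-93 in the 5 plasma libraries lies above every other library, miR-18a is highest in jejunum, and the 5 testis libraries of the miR-106a-5p row range from 1.48 to 432 RPM.

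The first question was whether the group is higher in certain tissues with many dividing cells than in brain, heart and skeletal muscle. Thymus and bone marrow, the blood-forming tissues, were set against these tissues, whose cells mostly do not divide. All 9 rows were higher in the blood-forming tissues, from 1.38 log2 units for miR-17 (3p) to 3.49 for miR-18a. Over all 480 miRNAs tested, 23.5% were higher and 32.3% lower in this comparison. The median log2 fold change was 2.24 over the 9 rows and -0.64 over all miRNAs tested. Brain, heart and skeletal muscle are among the tissues with the lowest summed levels, and the result does not extend to tissues left out of the comparison. The summed means of lung (2220 RPM), liver (2015 RPM) and pancreas (1676 RPM) lay below that of colon (2311 RPM). Duodenum had 1698 RPM, and 2871 RPM without the low-marker libraries.

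miR-18a, the only member of its seed family in the group, had the largest fold change. It measured 92.42, 92.04, 151, 169 and 101 RPM in bone marrow and 98.8, 12.7, 3.42, 119 and 7.89 RPM in thymus. It measured 7.63, 4.97, 0.982, 14.9 and 4.78 RPM in brain and no more than 13.1 RPM in heart and 18.1 RPM in skeletal muscle. All 5 bone marrow libraries lay above every library of these 3 tissues, while the 3 low-marker thymus libraries lay among them. The fold change was 3.49 ± 0.43 log2 units (SE), or 11.3-fold, with an adjusted p of 2.1e-10 by edgeR's quasi-likelihood test, and 4.10 without thymus replicate 3. miR-18a had 3 reads or fewer in brain replicate 3, heart replicates 2 and 4 and skeletal muscle replicates 2 and 5. The size of the fold is therefore uncertain.

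Within the miR-17 seed family, the miR-17-5p row was higher by 2.46 ± 0.28 log2 units (SE; adjusted p = 1.2e-11), miR-106b by 2.24 ± 0.31, miR-20a by 2.20 ± 0.32, the miR-106a-5p row by 1.99 ± 0.49 and miR-93 by 1.40 ± 0.17. The miR-17-5p row ran from 212 to 344 RPM in bone marrow, above the 6.33 to 90.9 RPM of the 15 libraries of brain, heart and skeletal muscle. miR-19a was higher by 3.14 ± 0.44 log2 units and miR-19b by 3.0004 ± 0.38. The call of the miR-106a-5p row rested on thymus, where it measured 25.3 to 55.0 RPM. In bone marrow it had 1 to 3 reads a library, a mean of 7.80 RPM, against 6.27 RPM in brain, 3.65 RPM in heart and 3.24 RPM in skeletal muscle. All 9 calls were made under each scaling, by DESeq2 and without the low-marker libraries, where the fold changes ran from 1.73 to 4.04. Of the 15 partner rows, the remaining products of the same hairpins and clusters, 11 passed the filter and all 11 were higher, among them miR-25, the MCM7 neighbour of miR-93, by 1.55 ± 0.17, and miR-92a by only 0.50 ± 0.22 log2 units (adjusted p = 0.046).

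**Figure D3:**
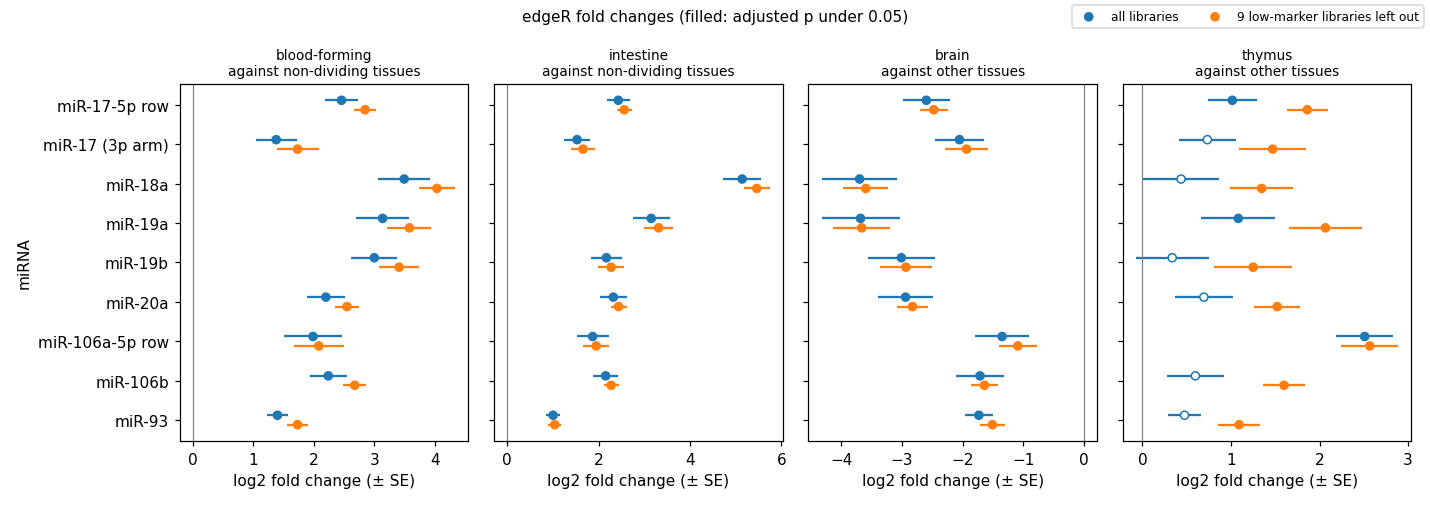
log2 fold change (horizontal axis, ± SE) of the 9 rows in 4 comparisons by edgeR, with all libraries (blue) and without the 9 low-marker libraries (orange), filled where the adjusted p was under 0.05. All 9 rows pass in the first 3 comparisons with both sets of libraries, whereas in thymus 3 pass with all libraries and 9 without the low-marker ones.

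The intestine, whose lining is renewed continuously, was set against the same 3 tissues, so that both comparisons share these 15 libraries. All 9 rows were higher in the mean of duodenum, jejunum, ileum and colon, by 1.00 (miR-93) to 5.14 (miR-18a) log2 units. Of all miRNAs tested, 31.5% were higher and 34.0% lower, 151 and 163 miRNAs. With the size factors of DESeq2 the split of calls moved to 116 higher and 192 lower, and the 9 rows were still higher. The median was 2.17 log2 units over the 9 rows and -0.22 over all miRNAs.

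miR-18a again changed most. It measured 633, 385, 188, 461 and 408 RPM in jejunum, and 168, 193, 132, 91.97 and 253 RPM in ileum. In duodenum it measured 454, 364, 6.49, 8.56 and 93.6 RPM, the 3 low values being the low-marker libraries. The 4 colon libraries held 53.6, 167, 55.7 and 260 RPM. Every jejunum, ileum and colon library therefore exceeded all 15 libraries of brain, heart and skeletal muscle, which reached 18.1 RPM. The fold change was 5.14 ± 0.42 log2 units (SE), or 35.3-fold (adjusted p = 4.1e-17), and 5.46 ± 0.28 without the low-marker libraries. Its size is again uncertain, since some brain, heart and skeletal muscle libraries had 3 reads or fewer of miR-18a.

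miR-19a was higher in intestine by 3.15 ± 0.40 log2 units, the miR-17-5p row by 2.43 ± 0.25, miR-20a by 2.32 ± 0.29, miR-19b by 2.17 ± 0.34 and miR-106b by 2.15 ± 0.28. The 3 smallest changes were those of the miR-106a-5p row (1.87 ± 0.35), miR-17 (3p) (1.53 ± 0.28) and miR-93 (1.00 ± 0.15). Of the 11 partner rows tested, 10 were higher and none lower, led by miR-18b, the miR-18 product of the miR-106a-363 cluster, at 3.84 ± 0.46, although miR-18b had 3 reads or fewer in all 5 skeletal muscle libraries.

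Brain was set against the mean of the other 15 tissues. All 9 rows were lower in brain, by 1.35 log2 units (miR-106a-5p row) to 3.70 (miR-18a). In mean RPM, however, brain was the lowest tissue for none of the 9 rows. Skeletal muscle lay below it in every row but miR-18a, and sciatic nerve in every row but the miR-106a-5p row. Among all miRNAs tested, 28.1% were lower and 45.2% higher, or 135 and 217 miRNAs. The median over the 9 rows was -2.60 and over all miRNAs 0.13. The count depended on the scaling. With DESeq2 size factors 252 miRNAs were higher and 86 lower, and 8 of the 9 rows were lower. With library size alone the split was 270 to 65, with 6 of the 9 rows lower and miR-93 (-0.63 log2 units, adjusted p = 0.053), miR-106b (-0.64, adjusted p = 0.18) and the miR-106a-5p row (-0.30, adjusted p = 0.62) not called.

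The 6 rows called under every scaling were those encoded in the miR-17-92 set, of which miR-19b has a copy in the miR-106a-363 set too. miR-19a measured 2.80 to 11.5 RPM in the 5 brain libraries and changed by -3.68 ± 0.64 log2 units (SE; adjusted p = 6.2e-07). miR-19b measured 36.4 to 119 RPM and changed by -3.01 ± 0.56, miR-20a by -2.94 ± 0.46, the miR-17-5p row by -2.60 ± 0.39 and miR-17 (3p) by -2.05 ± 0.40. The fold changes of the MCM7 members were -1.73 ± 0.24 for miR-93, which measured 590 to 967 RPM in brain, and -1.71 ± 0.40 for miR-106b. The difference between clusters was tested only through the ratios given further on. Of the 11 partner rows tested, 10 were lower.

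Bone marrow against the other tissues gave 4 higher rows of 9, where 16.5% of all miRNAs were higher and 24.6% lower. miR-19b led, with 1269, 1322, 1275, 2052 and 1881 RPM, a mean of 1560 ± 377 RPM (SD). Only plasma replicate 2, at 3138 RPM, exceeded the marrow range, and the other plasma libraries measured 433 to 1079 RPM. The fold change of miR-19b was 2.20 ± 0.34 log2 units (SE; adjusted p = 1.8e-07). miR-18a was higher by 1.49 ± 0.41, miR-106b by 1.26 ± 0.31 and the miR-17-5p row by 0.84 ± 0.29 (adjusted p = 0.015). Without marrow replicate 1 the changes of miR-19b and miR-18a were 2.82 and 2.15. The median of the 9 rows was 0.84 and that of all miRNAs -0.97.

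The marrow count was sensitive to scaling. It was 7 with DESeq2 size factors, with library size alone, without the count filter and by DESeq2, and 7 rather than 4 in 43 of the 76 fits that left out 1 library. The split over all miRNAs moved with it, from 79 higher and 118 lower to 102 and 96 with DESeq2 size factors and 105 and 84 with library size alone. Of the 11 partner rows tested, 5 were higher and miR-92a was lower, by 1.82 ± 0.29 log2 units, in the opposite direction to its cluster mates miR-18a and miR-19b. The miR-106a-5p row had 1 to 3 reads in each marrow library, and no fold change is given for it. The myeloid marker miR-223 was at 2727 to 5871 RPM in marrow against a thymus range of 0 to 40.0 RPM, and its part in the marrow values was not tested.

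Thymus against the other tissues gave 3 higher rows of 9, with 21.2% of all miRNAs higher and 5.21% lower. The highest was the miR-106a-5p row, with 55.0, 25.3, 29.1, 49.4 and 45.3 RPM in the 5 libraries and a fold change of 2.51 ± 0.32 log2 units (SE), or 5.69-fold (adjusted p = 3.0e-09). Replicate 5, poor in lymphocyte markers, lay close to replicates 1 and 4. The miR-17-5p row was split, with 573 and 474 RPM in replicates 1 and 4 and 44.3, 43.9 and 112 RPM in replicates 2, 3 and 5, and was higher by 1.01 ± 0.28 (adjusted p = 0.0038). miR-19a was higher by 1.08 ± 0.42 (adjusted p = 0.046), a call that DESeq2 size factors (adjusted p = 0.056) and DESeq2 (adjusted p = 0.099) did not make and that was lost without thymus replicate 1 (0.35, adjusted p = 0.72).

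The thymus calls turned on which libraries were used. Without replicate 1 or without replicate 4 only the miR-106a-5p row was called, without replicates 2, 3 and 5 the counts were 6, 7 and 5, and 52 of the 76 fits that left out 1 library of any tissue gave a count between 5 and 7 in place of 3. Without the low-marker libraries, with only replicates 1 and 4 left, all 9 rows were higher, by 1.09 ± 0.24 (miR-93) to 2.57 ± 0.32 (miR-106a-5p row) log2 units. Over all miRNAs, that fit called 77 higher and 29 lower. With all libraries the split was 102 higher and 25 lower with the main scaling and 101 and 10 with library size alone. miR-93, for example, measured 3563 and 2596 RPM in replicates 1 and 4 and 1020, 814 and 929 RPM in the low-marker libraries, without overlap. The lymphocyte list is not particular to lymphocytes in these tissues, since its summed level in brain was 163751 to 391283 RPM, and the part of cell composition in the thymus values was not tested.

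**Figure D4:**
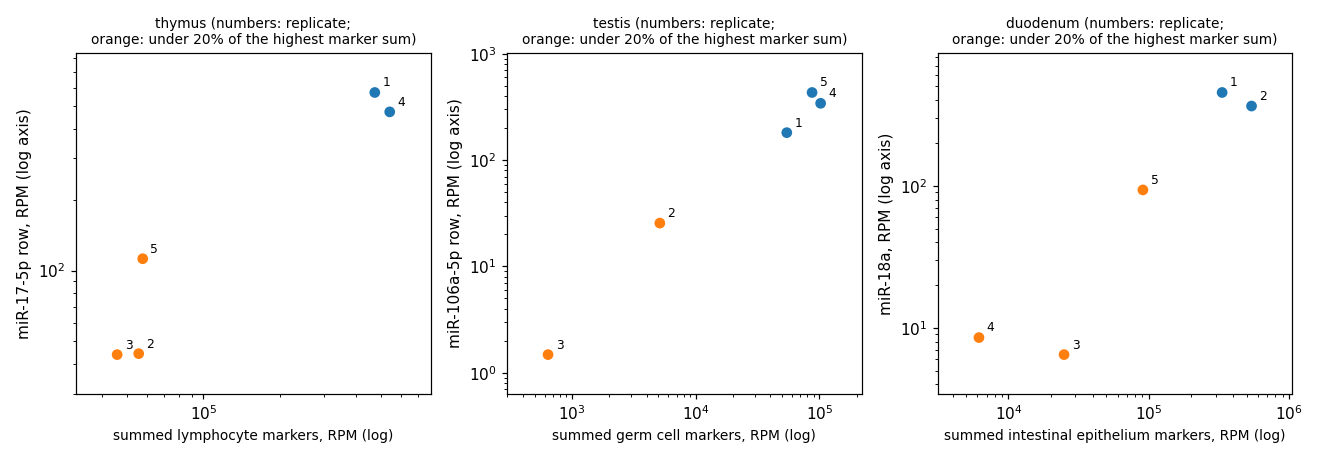
Level of 1 member (vertical log axis, RPM) against the summed markers of the tissue (horizontal log axis, RPM) in each library of thymus, testis and duodenum, numbered by replicate, with the low-marker libraries in orange. In each tissue the other libraries hold higher member values than the low-marker ones.

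Set directly against bone marrow, thymus differed in 2 rows, with 27.5% of all miRNAs higher and 10.2% lower in thymus. The miR-106a-5p row was higher in thymus, where the counts of 1 to 3 reads in marrow allow no fold. miR-19b was lower, by 1.74 ± 0.60 log2 units (SE; adjusted p = 0.015). It measured 1074, 38.0, 79.3, 669 and 128 RPM in thymus, all below the lowest marrow library. Without the low-marker libraries the difference of miR-19b was -0.74 ± 0.62 (adjusted p = 0.42), and 4 rows were higher in thymus: the miR-106a-5p row, miR-17 (3p), the miR-17-5p row and miR-20a. Over all miRNAs, that fit called 105 higher and 53 lower. With a fit on these 2 tissues alone the miR-106a-5p row was not called and 46 miRNAs were higher and 36 lower, in place of 132 and 49. Scaling by DESeq2 size factors gave 104 and 65, and library size alone 101 and 61.

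In testis the miR-106a-5p row stood out. It measured 181, 25.5, 1.48, 342 and 432 RPM in replicates 1 to 5, against 58.9 RPM in the highest library of any other tissue. The libraries in replicates 2 and 3, which fell below that value, were the ones low in germ cell markers. The fold change against the other 15 tissues was 4.28 ± 0.29 log2 units (SE), or 19.5-fold (adjusted p = 2.5e-21), and 4.94 ± 0.24 without the low-marker libraries. It was the only one of the 9 rows that was higher in testis, where 34.0% of all miRNAs were higher and 16.0% lower.

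The 3 rows tested that are encoded beside it alone were also higher. miR-363 measured 3992, 346, 17.3, 6134 and 6676 RPM in the same libraries and was higher by 3.77 ± 0.25 log2 units, miR-20b by 3.61 ± 0.35 and miR-18b by 2.20 ± 0.47. Of the 6 products of the MCM7 set that were tested, 3 were lower in testis, miR-93 by 0.78 ± 0.22 log2 units (adjusted p = 0.0018), its partner miR-25 by 1.53 ± 0.23 and the other arm of miR-106b, miR-106b-3p, by 1.61 ± 0.26. The changes of miR-106b (-0.70 ± 0.38, adjusted p = 0.12) and miR-93-3p (-0.76 ± 0.40, adjusted p = 0.10) were not called. That of miR-25-5p was 0.78 ± 0.47 (adjusted p = 0.16), and this row was higher without the low-marker libraries (1.24 ± 0.51, adjusted p = 0.040). In all, 5 of the 11 partner rows tested were higher and 2 lower. The higher ones included miR-92a-1-5p of the miR-17-92 set, by 3.20 ± 0.47 log2 units, with 1 to 28 reads in the testis libraries. They also included miR-92a, encoded in the miR-17-92 and miR-106a-363 sets, by 0.68 ± 0.23. The increase was thus not confined to rows of the miR-106a-363 set. The decrease of miR-93 was not called with DESeq2 size factors (-0.41, adjusted p = 0.090), library size alone (-0.34, adjusted p = 0.36) or DESeq2 (-0.41, adjusted p = 0.061), and 3 of the 9 rows were then higher. The split over all miRNAs was 163 higher and 77 lower, 205 and 50 with DESeq2 size factors, and 193 and 44 with library size alone.

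Plasma held far more miR-93 than the marrow in which blood cells form. miR-93 measured 9192, 16250, 15972, 14515 and 13570 RPM in plasma and 2933, 1598, 2475, 1947 and 1495 RPM in bone marrow. No library outside plasma exceeded 3563 RPM. The difference was 3.95 ± 0.31 log2 units (SE), or 15.5-fold (adjusted p = 6.8e-18), and 3.33 without marrow replicate 5. The mean RPM was 13900 in plasma and 2089 in marrow. That is a smaller ratio than the fold, which also includes the scaling between libraries. Of the 9 rows, 4 were higher in plasma and none lower, where 26.5% of all miRNAs were higher and 16.7% lower.

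The other 3 were miR-19a, by 3.15 ± 0.69 log2 units, miR-17 (3p), by 2.62 ± 0.53, and miR-106b, by 2.09 ± 0.48. These sizes depended on single libraries. The change of miR-19a was 2.21 without plasma replicate 2 and 2.48 without marrow replicate 5, that of miR-17 (3p) was 1.84 without marrow replicate 1 and 2.01 without marrow replicate 4, and that of miR-106b was 1.51 without marrow replicate 5. All of them still passed. The call of miR-106b was lost with library size alone (0.94, adjusted p = 0.20), where the split of all miRNAs turned from 127 higher and 80 lower to 69 and 123. Of the 11 partner rows tested, 6 were higher and 1 lower, with miR-92a at 18079 to 39720 RPM in plasma and 2021 to 4159 RPM in marrow (4.39 ± 0.39 log2 units) and miR-25 higher by 3.07 ± 0.29. The lower row was miR-20b, for which no fold is given, since it had 0 to 4 reads in the plasma libraries and 2 to 6 in those of marrow. The red cell markers miR-451, miR-144 and miR-486 summed to 543769 to 815725 RPM in plasma and 83638 to 144926 RPM in marrow. They moved with the comparison, as did the RNA isolation, and their part in it was not tested.

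By a rule after the study's definition of tissue enrichment, a mean above 5 times that of all other samples with an adjusted p under 0.05 in a rank-sum test, run here in a two-sided exact form, 3 of the 9 rows were enriched in a tissue, against 54.6% of all 650 miRNAs. miR-93 in plasma was 12.4-fold over all other samples (adjusted p = 3.1e-06), and its plasma median was 4.07 times the highest other library. miR-19a in plasma was 8.77-fold (adjusted p = 8.0e-05), but 5.15-fold without plasma replicate 2, close to the limit of 5, and 4.31% of all miRNAs were enriched in plasma. miR-18a in jejunum was 7.06-fold (adjusted p = 0.00059), where only 1.23% of all miRNAs were enriched, although its median reached no more than 0.899 times the highest other library, that of a duodenum sample. The miR-106a-5p row in testis reached 19.7-fold but missed the threshold (adjusted p = 0.079).

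Ratios of reads within a library compared the clusters without any scaling between libraries. Over 12 exact permutation tests between pairs of tissues, two-sided, the smallest p that 5 against 5 libraries allow is 0.00794, or 0.024 after adjustment here. The first ratio set the MCM7 members miR-93 and miR-106b against miR-17 (3p), miR-18a, miR-19a and miR-20a of the miR-17-92 set, leaving out miR-19b because the miR-17-92 and miR-106a-363 sets both hold a copy. Its log2 value was 4.50 ± 0.66 (SD, n = 5) in plasma and 2.29 ± 0.20 in bone marrow, without overlap, a difference of 2.21 (exact permutation, adjusted p = 0.024). In brain it was 4.04 ± 0.28 against 2.80 ± 0.30 in heart, also without overlap, a difference of 1.24 (exact permutation, adjusted p = 0.024).

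In thymus this ratio was 3.17 ± 1.00 and its differences from bone marrow and brain did not pass the test (exact permutation, adjusted p = 0.15 for both). The difference from brain was -0.86 log2 units and became -1.86 without the low-marker thymus libraries, where 2 against 5 libraries allow no p below 0.0952 (exact permutation, adjusted p = 0.13), and the difference from marrow turned from 0.89 to -0.11. Jejunum had the lowest mean, 0.69 ± 0.55, and sciatic nerve the highest, 4.63 ± 0.36 (n = 2). With the miR-17-5p row in place of miR-17 (3p), the difference of plasma and marrow was 2.54 and that of brain and heart 1.17 (exact permutation, adjusted p = 0.032 for both). With miR-93 over miR-17 (3p) alone both calls were lost, the difference of marrow and plasma being -1.23 (exact permutation, adjusted p = 0.12) and that of brain and heart 0.61 (exact permutation, adjusted p = 0.13). With miR-19b added to the miR-17-92 sum, thymus was above marrow by 1.91 log2 units (exact permutation, adjusted p = 0.019). This alternative used all thymus libraries and was not run without the low-marker ones.

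The 2 miR-19 rows did not keep a fixed ratio. The log2 ratio of miR-19b to miR-19a was 3.91 ± 0.75 (SD, n = 5) in bone marrow and 1.55 ± 0.13 in plasma, the highest and lowest means of the 16 tissues, and the difference of 2.36 passed the test (exact permutation, adjusted p = 0.024). Colon (1.88 ± 0.13, n = 4), ileum (2.01 ± 0.25) and jejunum (2.23 ± 0.34) lay next to plasma. Brain and heart had ratios of 3.38 ± 0.46 and 3.18 ± 0.25 and their difference did not pass the test (exact permutation, adjusted p = 0.40).

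The ratio of miR-20a to miR-17 (3p) differed between marrow (3.32 ± 1.09) and plasma (1.16 ± 0.43) by 2.16 (exact permutation, adjusted p = 0.024). This rested on the arm. miR-20a over the miR-17-5p row was -0.34 ± 0.17 in marrow and -0.53 ± 0.19 in plasma, a difference of 0.18 (exact permutation, adjusted p = 0.22). miR-20a and miR-17-5p, neighbours with the same seed, stayed within a log2 ratio of -1.03 to 0.70 in the means of all 16 tissues.

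**Figure D5:**
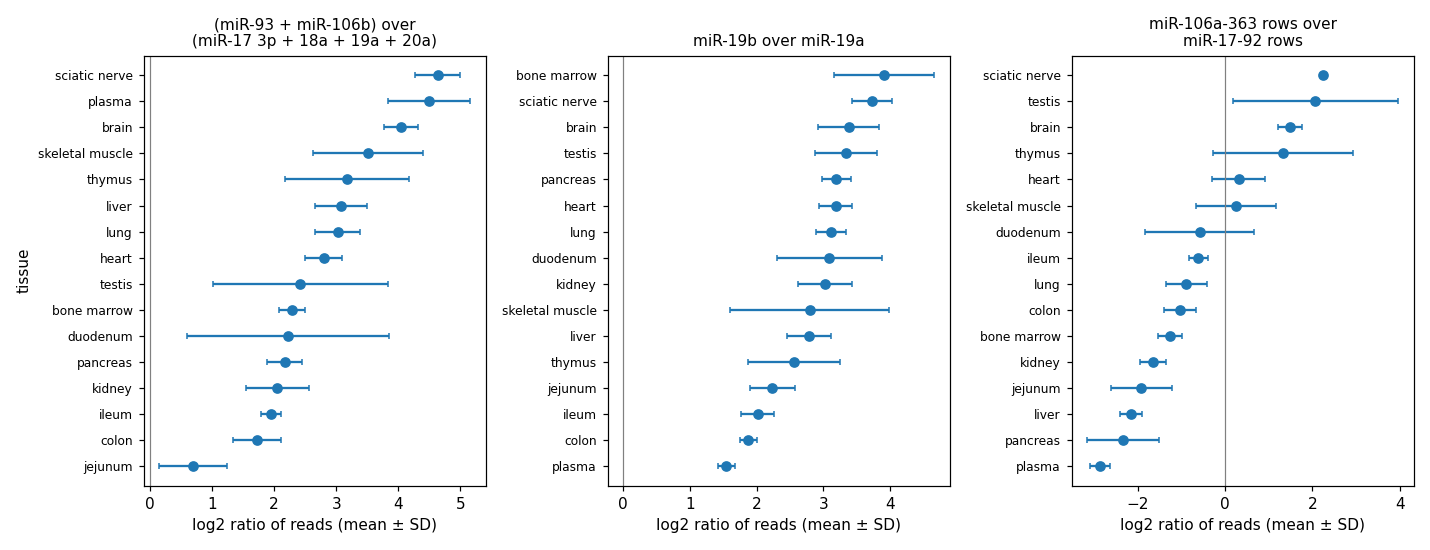
Mean ± SD of 3 log2 ratios of reads (horizontal axis) by tissue (vertical axis, ordered by the mean, 5 libraries each but 4 of colon and 2 of sciatic nerve). Plasma lies near the top in the ratio of MCM7 to miR-17-92 members and is lowest in the others.

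The miR-106a-363 set was compared with the miR-17-92 set by 4 rows of each, the miR-106a-5p row, miR-18b, miR-20b and miR-363 over the miR-17-5p row, miR-18a, miR-19a and miR-20a. The log2 ratio was 2.24 in sciatic nerve (n = 2), 2.07 ± 1.89 (SD, n = 5) in testis, 1.48 ± 0.28 in brain and 1.32 ± 1.60 in thymus. The thymus mean rested on the low-marker libraries, with -0.51 and -0.15 in replicates 1 and 4 and 2.89, 2.83 and 1.54 in replicates 2, 3 and 5, so that without them its sign turned to a mean of -0.33. It was -2.86 ± 0.23 in plasma and -2.35 ± 0.82 in pancreas. The testis libraries ran from -1.24 to 3.22, with the low-marker replicate 3 at the lower end, and had a mean of 3.12 without the low-marker libraries. The duodenum mean moved from -0.58 to -1.79 without them, and no test was made of this ratio.

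Across the 16 tissue means of log2(RPM + 1), the members were like each other to different degrees. Pearson's r was 0.935 between miR-20a and the miR-17-5p row and 0.930 between miR-19a and miR-19b. The miR-106a-5p row had an r of at most 0.351 with any other member and of 0.947 with miR-363, its cluster neighbour. Among 258 other miRNAs with a tissue median above 100 RPM, the pattern of the summed members was most like those of miR-15a (r = 0.950), miR-16-3p (0.926), miR-16 (0.925), miR-339 (0.912) and miR-106b-3p (0.889). This order leaned on miR-93. With miR-93 left out of the sum, miR-339 came first (r = 0.871). miR-15a was then at rank 5 (0.790), and no miR-16 row ranked above it. These are descriptions over 16 tissues that share libraries and scaling.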

How the data were processed

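The authors removed adaptors, mapped reads without mismatches on CanFam3.1 (OSA v4), dropped reads with more than 10 genomic locations, and counted reads that overlapped at least 70% of a miRNA locus known from dog, rat or human annotation (miRBase 21). The authors deposited these counts, the total count of reads on miRNAs per library, and RPM, which recomputed values matched within a relative difference of 2.89e-09. Unlisted counts were set to 0. The counts of a library exceeded its total by at most 1.16%. A sample name in the table without a certain label and a colon sample without values were not used.

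Counts were tested with edgeR 4.0.16 (TMM, filterByExpr, quasi-likelihood) in 1 fit over all tissues with Benjamini-Hochberg adjustment over 480 miRNAs, with DESeq2 1.42.0 as an alternative, both in R 4.3.3. Tissue enrichment used RPM. Ratios used counts with 0.5 added and exact permutation tests in Python 3.11.15 with scipy 1.17.1. The procedures were tested on simulated data. The limits of 3 reads cover counting error only. Replicates differed by more than sampling noise in all 147 pairs (chi-square per degree of freedom at least 10.7). The members, lists and tests were chosen with earlier results of these data known. The text names the members, their cluster partners and the 5 miRNAs most like the summed members, besides markers. Gene neighbours come from a table of assembly UU_Cfam_GSD_1.0. Mature sequences, treated animals and Q-RT-PCR were not analysed here.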

Additional observations from a re-analysis of the deposited data

Results flagged for a closer look

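In groups of 4 or 5 libraries, 10 of 135 combinations of a member and a tissue held 1 library farther from the others than Dixon's 95% limit allows. A rate of about 1 in 20 holds by chance for independent, normally distributed values. The limit was applied to RPM without a log, and flags of different members in the same library are not independent, so the flags are a description only. Replicate numbers do not tie libraries of different tissues to 1 dog.

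The miR-19 members made up 7 of them, each with the outlying library above the rest. miR-19b was at 3138 RPM in plasma replicate 2 (433 to 1079 in the others), 1054 RPM in duodenum replicate 1 (31.9 to 220) and 522 RPM in kidney replicate 1 (102 to 179). miR-19a was at 1251 RPM in the same plasma library (149 to 354), 194 RPM in the same duodenum library (1.56 to 50.0), 85.3 RPM in the same kidney library (9.07 to 28.6) and 68.6 RPM in liver replicate 1 (21.1 to 30.9), so that the pair stood out together in 3 libraries.

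Colon replicate 5 was high in miR-106b, at 199 RPM against 95.9 to 109 RPM, and in miR-17 (3p), at 34.6 RPM against 21.7 to 22.8 RPM. Skeletal muscle replicate 5 held 0 RPM of miR-17 (3p) against 7.03 to 9.07 RPM in the other libraries, which a library of this depth cannot separate, since 3 reads are 9.50 RPM there.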

How the results depend on the processing

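No paired analysis was possible because the labels carry no dog number. All 9 members kept their calls against brain, heart and skeletal muscle, in blood-forming tissues and in intestine, under every alternative run and with each library left out. Of 72 member fold changes, 30 were not called, 17 of these changed sign and 18 passed the threshold in at least 1 alternative. Where a count moved, the cause was not tested.

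Members higher in bone marrow numbered 7 in place of 4 with DESeq2 size factors, library size alone, no count filter and DESeq2. Members higher in testis numbered 3 in place of 1, and lower 0 in place of 1, with DESeq2 size factors, library size alone and DESeq2, and 3 were higher without the low-marker libraries. In thymus the members higher numbered 6 without the filter and 9 without the low-marker libraries. Against marrow, thymus then had 4 members higher and 0 lower, and a fit on both tissues alone gave 0 higher.

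Over all miRNAs, DESeq2 size factors gave 50 lower in testis and 86 in brain. Library size alone gave 44 lower in testis, 65 in brain and 10 in thymus, and 69 higher and 123 lower in plasma against marrow. No filter gave 13 lower in thymus and 120 higher in marrow, DESeq2 45 lower in thymus, and the fit on the compared tissues alone 46 higher in thymus and 68 in plasma against marrow. Without the low-marker libraries the splits were 77 higher and 29 lower in thymus, and 132 and 80 in testis. For thymus against marrow the split was then 105 and 53.

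With each library left out, members higher ranged from 1 to 7 in thymus and 3 to 7 in marrow, members lower from 0 to 3 in thymus against marrow and 1 to 2 in testis, all miRNAs lower from 11 to 28 in thymus and 74 to 130 in marrow, and the log2 difference of miR-19b over miR-19a between thymus and marrow from -1.61 to -1.09.

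Tissue enrichment covered 5 members in 6 combinations with medians, 6 in 6 with TMM library sizes, and 163 miRNAs in all with a median above 100 RPM. For the ratio of MCM7 to miR-17-92 members, miR-93 over miR-17 (3p) alone gave -0.23 for thymus minus marrow (a reversal). It also lost the calls for marrow minus plasma (-1.23) and brain minus heart (0.61). Adding miR-19b gained a call for thymus minus marrow (1.91), an alternative not run without the low-marker libraries. Leaving those libraries out of the main ratio reversed the difference of thymus minus marrow (-0.11). The miR-17-5p row, chosen after seeing the row names, lost the call of miR-20a between marrow and plasma (0.18) and gained one between brain and heart (-0.59).

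Summed levels with TMM library sizes were 3247 in marrow, 481 in brain, 26362 in plasma and 710 in sciatic nerve, and with DESeq2 size factors 784 in brain, 1555 in liver, 1319 in lung, 2182 in pancreas, 28683 in plasma and 735 in sciatic nerve. The thymus level was 5527 without the low-marker libraries. Shallow marrow libraries and rows with few reads limit the miR-106a-5p row and miR-17 (3p). Few reads in some libraries also limit miR-18a and miR-19a.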
